A study of Mus musculus with 2 samples.

Results

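Purinergic receptors and the enzymes that break down extracellular nucleotides were compared between cell populations cultured from different fractions of mouse epididymal fat. The group held 10 genes, picked by name. They comprise the ATP-gated channel genes P2rx4 and P2rx7, the G protein-coupled nucleotide receptor genes P2ry1, P2ry2, P2ry6, P2ry12, P2ry13 and P2ry14, and the ectonucleotidase genes Entpd1 and Nt5e. They were found on the arrays through the RefSeq transcript of each probe and were read from 12 probes, out of 20884 named genes and 39425 probes in all. The names were chosen with the intensities of these same arrays known, so every value of these genes below is a description and none was tested. The data are 2 Agilent mouse arrays of 1 colour each, and each cell population had 1 of them. The differentiated small proliferative adipocytes (SPAD) grew from cells that sedimented in a second spin, at 226 g, of the floating fraction of collagenase-digested fat. The differentiated stromal vascular cells (SVCD) grew from the lower phase of the preceding spin, at 9 g. Both came from epididymal fat of male C57/BL mice, reached 90% confluency, and spent 3 days in medium with insulin, dexamethasone and IBMX, a mixture that induces fat cell formation, and then 2 days in DMEM. The labels name no genetic change and no further treatment in either population, and they do not give how many animals or cultures went into each RNA. Each population was a primary culture prepared by density, not by a marker sort, so it can hold several cell types.

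Cells release ATP and other nucleotides when they are stimulated, stretched or damaged, and neighbouring cells read them through P2 receptors. P2X receptors are channels opened by ATP, whereas P2Y receptors couple to G proteins and differ in the nucleotide they bind. On the cell surface, Entpd1 (also called CD39) cuts ATP and ADP to AMP, and Nt5e (CD73) turns AMP into adenosine, which acts on receptors of its own. In fat, such receptors occur on adipocytes and their precursors, and several members are best known from macrophages and other blood cells.

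All signals below are processed intensities in the scanner's arbitrary units. The log2 differences are SPAD minus SVCD after each array was scaled to its 75th percentile, an intensity of 622 for SPAD and 678 for SVCD. Signals well above background were seen for 64.5% of probes in SPAD and 65.6% in SVCD, and no spot was saturated. With 1 array per group there is no replicate error and no test. The error quoted after ± is the one that the scanner software models for the spots of a probe, carried to the log2 difference. Its size was about 0.20 for probes clear of the background. Repeat spots of the same probe varied less, with an SD of the log2 difference of 0.09 over 267 probes printed 10 times. Neither error covers differences between cultures or RNA extractions.

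Among the receptors that signal through Gq, P2ry6, the UDP receptor, was far dimmer in SPAD, whereas P2ry2, the receptor for ATP and UTP that lies next to it on chromosome 7, was not. P2ry6 had an intensity of 160.4 in SPAD, against 14229 in SVCD, the means of 9 spots on each array. It was 81.3-fold lower in SPAD (log2 difference -6.35 ± 0.21). The lowest, median and highest of these spots were 150.0, 161.1 and 169.7 in SPAD and 13620, 14227 and 15030 in SVCD. The spots of the arrays did not overlap, and the log2 difference of spot pairs ran from -6.42 to -6.27. In SPAD the P2ry6 probe was still well above background. P2ry2 had 2140 in SPAD, against 1369 in SVCD, a log2 difference of 0.77 ± 0.20 or 1.71-fold higher in SPAD. That is short of 2-fold, and it was -0.06 when the arrays were scaled to their spike-in control spots. In RNA of a whole culture, fewer cells of a type and less RNA per cell cannot be told apart. This holds for every difference given here.

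**Figure D1:**
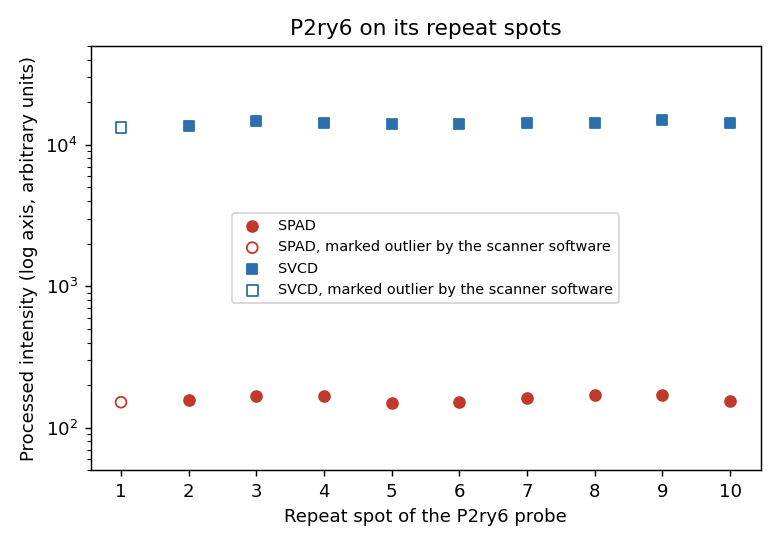
Processed intensity of P2ry6 (log axis, arbitrary units) on each of its 10 repeat spots, with SPAD as circles and SVCD as squares. Open symbols mark the spot that the scanner software called an outlier on each array and that was left out. The filled SPAD circles lie between 150.0 and 169.7 and the filled SVCD squares between 13620 and 15030; the open symbols are at 151.3 in SPAD and 13252 in SVCD.

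The receptors for ADP, namely P2ry1, P2ry12 and P2ry13, and P2ry14, the receptor for UDP-glucose, were well above background in SVCD alone. P2ry1, a Gq-coupled ADP receptor, had 4.45 in SPAD, not well above background, against 147.8 in SVCD. P2ry12, the Gi-coupled ADP receptor known from platelets and microglia, had 2.70 in SPAD and 100.5 in SVCD. P2ry13, a related Gi-coupled ADP receptor, had 2.68 in SPAD and 102.4 in SVCD. All of these SPAD signals lay below the dimmest probe called well above background on that array, which had 10.8. P2ry14 had 9.88 in SPAD and 241.2 in SVCD, again below that limit in SPAD. Set against the limit, the SPAD level was at least 12.5-fold lower for P2ry1, at least 8.54-fold for P2ry12, at least 8.70-fold for P2ry13 and at least 20.5-fold for P2ry14. The SVCD signals of these genes were themselves dim, below that array's 75th percentile of 678. A background correction that adds an offset of 50 to every signal (normexp) kept these directions and lowered the bounds to at least 2.53-fold, 2.39-fold, 2.24-fold and 3.35-fold lower for P2ry1, P2ry12, P2ry13 and P2ry14. Of all 20884 named genes, 4.15% were well above background in SVCD alone. The 4 receptors among the 10 members were picked with this known, so nothing is read from the comparison.

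These receptor genes lie on chromosome 3. In the order of the RefSeq gene table, P2ry13 and P2ry12 are direct neighbours among coding genes, whereas 10 coding genes lie between P2ry12 and P2ry1. P2ry12, P2ry13 and P2ry14 all lie inside the span of Med12l. The Med12l probe had 8.26 in SPAD and 2.00 in SVCD and did not stand well above background in SPAD or in SVCD. Because the 4 receptors share the pattern of signal in SVCD alone and lie on 1 chromosome, bases before the RefSeq start of each are printed. The 250 bases run 5′ to 3′ on the strand of the gene, from RefSeq (GRCm38.p6). Capitals mark GAGGAA or its reverse complement TTCCTC, the core letters of sites bound by PU.1, a transcription factor of myeloid cells.
P2ry14, GRCm38.p6 chr3:59153493-59153742, minus strand: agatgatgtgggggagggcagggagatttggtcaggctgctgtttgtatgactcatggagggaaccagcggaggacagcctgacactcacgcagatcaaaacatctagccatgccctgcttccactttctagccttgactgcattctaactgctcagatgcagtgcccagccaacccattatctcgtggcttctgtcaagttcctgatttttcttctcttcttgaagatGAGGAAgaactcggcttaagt
P2ry13, GRCm38.p6 chr3:59210883-59211132, minus strand: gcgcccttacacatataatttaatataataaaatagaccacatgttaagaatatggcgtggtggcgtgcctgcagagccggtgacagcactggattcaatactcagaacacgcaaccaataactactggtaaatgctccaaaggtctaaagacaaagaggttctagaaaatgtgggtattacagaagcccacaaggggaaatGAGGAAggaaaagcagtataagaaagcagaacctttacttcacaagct
P2ry12, GRCm38.p6 chr3:59262986-59263235, minus strand: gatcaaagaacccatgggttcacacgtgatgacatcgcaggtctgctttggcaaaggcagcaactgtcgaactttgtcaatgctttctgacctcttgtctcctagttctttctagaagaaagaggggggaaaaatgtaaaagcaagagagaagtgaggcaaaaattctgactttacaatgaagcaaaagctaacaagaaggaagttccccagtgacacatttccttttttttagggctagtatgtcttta
P2ry1, GRCm38.p6 chr3:61002535-61002784, plus strand: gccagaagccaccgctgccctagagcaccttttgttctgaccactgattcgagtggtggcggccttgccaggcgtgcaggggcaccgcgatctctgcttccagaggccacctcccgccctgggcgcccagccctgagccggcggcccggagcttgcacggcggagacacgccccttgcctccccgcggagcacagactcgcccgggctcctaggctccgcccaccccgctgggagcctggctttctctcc
P2ry14 has 4 listed starts, and the window printed is the one listed at the top in the table; each of its 4 windows held 1 match, and 2 of these windows overlap and share it. The P2ry13 window held 1 match, and those of P2ry12 and P2ry1 held 0. All members but P2ry6 had windows in the table, 9 genes with 15 windows in all. The motif was held by 6 windows of 3 genes: the 4 of P2ry14, that of P2ry13 and 1 of 2 of Entpd1. Of all 32851 windows of this length, 23.3% held it, counted on either strand. With only the start listed at the top for each gene, P2ry14 and P2ry13 alone of the 9 held it. Over all 27025 genes, 23.1% held it there. A match describes the letters of a window and does not show a bound site.

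**Figure D2:**
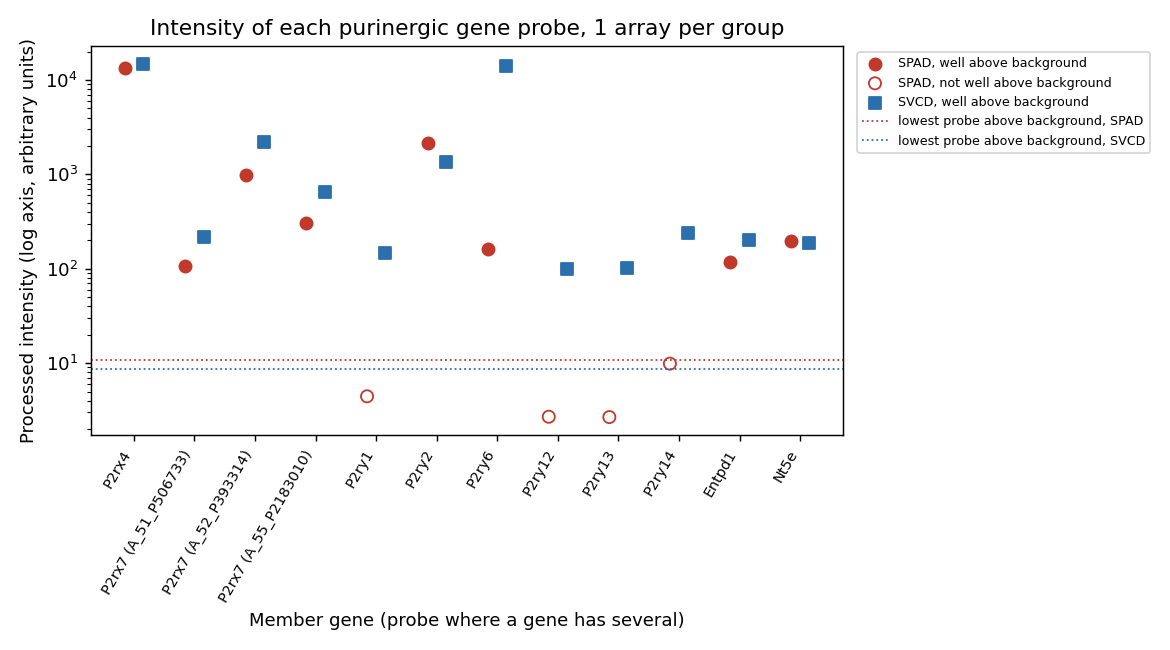
Processed intensity (log axis, arbitrary units) of each of the 12 probes of the purinergic genes, with SPAD as circles left of SVCD as squares. Open symbols are not well above background, and dotted lines mark the dimmest probe above background on each array, 10.8 in SPAD and 8.60 in SVCD. P2ry1, P2ry12, P2ry13 and P2ry14 are below the SPAD line in SPAD and between 100.5 and 241.2 in SVCD.

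Of the ATP-gated channels, P2rx7 was lower in SPAD and P2rx4 was nearly equal under the 75th percentile scaling. P2rx7 forms the channel that needs high ATP and triggers inflammasome activation in macrophages. It was read from 3 probes that carry different RefSeq transcripts. Its brightest probe had 992.7 in SPAD, against 2229 in SVCD. The other P2rx7 probes had 305.2 and 107.3 in SPAD, against 658.1 and 218.0 in SVCD. Each probe was dimmer in SPAD, with log2 differences of -1.04 ± 0.20, -0.98 ± 0.20 and -0.90 ± 0.21 from the brightest to the dimmest. Only the brightest probe was past 2-fold, by less than the error, and its difference was -0.94 with normexp. P2rx4, the more ATP-sensitive channel, lies next to P2rx7 on chromosome 5. It had 13466 in SPAD and 14918 in SVCD, and the log2 difference of -0.02 ± 0.20 was smaller than its error. With spike-in scaling P2rx4 was -0.86 and P2rx7 was -1.87.

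The ectonucleotidases that turn ATP into adenosine differed by less than 2-fold under the 75th percentile scaling. Entpd1 had 117.0 in SPAD, against 201.6 in SVCD, a log2 difference of -0.66 ± 0.21 or 1.58-fold lower in SPAD. Nt5e had 194.5 in SPAD and 188.9 in SVCD, a log2 difference of 0.17 ± 0.21, which is smaller than its error. Both were dim, below the 75th percentile of either array. With spike-in scaling Entpd1 was -1.49, past 2-fold lower, and Nt5e was -0.67.

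**Figure D3:**
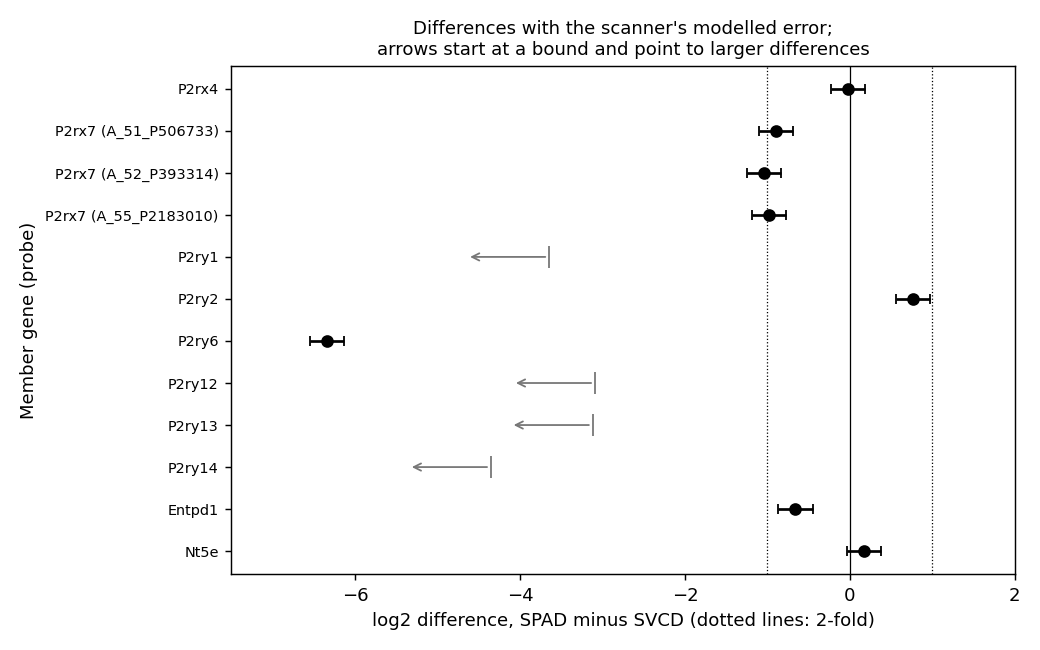
The log2 difference of SPAD minus SVCD for each probe of the purinergic genes, with dotted lines at 2-fold. Points carry the scanner's modelled error as bars; bars with an arrow start at the bound of genes that were above background in SVCD alone and point to larger differences. P2ry6 stands at -6.35, the 4 bounds between -4.36 and -3.09, and the other probes between -1.04 and 0.77.

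By size, 2 of the 6 members read on both arrays, P2ry6 and P2rx7, were at least 2-fold lower in SPAD, and 0 were at least 2-fold higher. Over all 14077 genes read on both arrays, 13.3% were at least 2-fold lower and 14.4% at least 2-fold higher in SPAD. Counting the bounds as well, 6 of 10 members were at least 2-fold lower, against 14.1% of the 15626 genes above background on at least 1 array, and 0 were at least 2-fold higher, against 16.3%. The median log2 difference of the 6 members was -0.34, and that of all genes read on both arrays 0.07. The members were picked from this contrast, and nothing is read from their share. In the authors' deposited table, which holds log2 values centred per probe, the difference was -6.35 for P2ry6, -1.04 for P2rx7, -0.66 for Entpd1, -0.02 for P2rx4, 0.17 for Nt5e and 0.77 for P2ry2.

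The other genes listed by a P2 receptor symbol were dim throughout. A symbol alone does not show that a receptor binds nucleotides. Of 7 named, 4 were read on both arrays. Of these, 0 were at least 2-fold higher in SPAD, against 14.4% of all genes, and 1 was lower, against 13.3%. That was P2rx5, a channel subunit, with 37.0 in SPAD and 184.1 in SVCD (log2 -2.19 ± 0.24). P2rx1, an ATP channel, had 48.1 in SPAD and 93.8 in SVCD (log2 -0.84), and P2rx2 had 32.0 in SPAD and 43.0 in SVCD (-0.30). P2rx3, the channel of sensory neurons, had probes that disagreed, at -0.68 on the brighter and 1.13 on the dimmer. P2rx6 was above background in SVCD alone, at 19.0 against 9.95 in SPAD, with a bound under 2-fold. P2ry4 and P2ry10 were not well above background on either array.

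The receptors for adenosine went in both directions. Adora3, the Gi-coupled A3 receptor, had 5.92 in SPAD, not well above background, against 266.4 in SVCD, and was at least 22.6-fold lower in SPAD. Adora2b, the low-affinity Gs-coupled receptor, had 80.8 in SPAD and 397.9 in SVCD (log2 -2.18 ± 0.21), with -1.27 on its other probe. Adora2a, the high-affinity Gs-coupled receptor, had 111.4 in SPAD and 35.0 in SVCD (log2 1.80 ± 0.22). Adora1, the Gi-coupled receptor that restrains lipolysis in adipocytes, had 55.9 in SPAD against 1.77 in SVCD, where it was not well above background. It was at least 7.09-fold higher in SPAD. Thus 2 of 4 were at least 2-fold lower and 2 at least 2-fold higher, counting bounds. Over all genes above background on at least 1 array, these shares were 14.1% and 16.3%. All of the adenosine receptor signals were below the 75th percentile of their array.

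Other enzymes that act on nucleotides outside the cell or in its membranes were higher in SPAD more often than lower. At least 2-fold higher were 5 of the 10 read on both arrays, against 14.4% of all genes. At least 2-fold lower was 1, against 13.3%. Their median log2 difference was 0.65, against 0.07 over all genes. Enpp2, which encodes autotaxin, the secreted maker of lysophosphatidic acid, had 444.4 in SPAD and 25.5 in SVCD, and was 19.0-fold higher in SPAD (log2 4.25 ± 0.23). Bst1, an ADP-ribosyl cyclase on the cell surface, had 15228 in SPAD and 3774 in SVCD (log2 2.14 ± 0.20), with 1.24 on its other probe. Entpd2, which prefers ATP and leaves ADP, had 124.6 in SPAD and 39.4 in SVCD (log2 1.78 ± 0.22). The tissue-nonspecific alkaline phosphatase gene Alpl had 47.5 in SPAD against 9.05 in SVCD, where it was not well above background. By these values it was 5.72-fold higher in SPAD (log2 2.52 ± 0.37). Enpp1, which makes pyrophosphate from ATP, had 28.9 in SPAD and 141.2 in SVCD (log2 -2.16 ± 0.25). Enpp3 was above background in SVCD alone and at least 2.53-fold lower in SPAD. Bst1 and Enpp2, both among the 5 that were higher, do not belong to the chain from ATP to adenosine.

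Of 15 genes of nucleoside transport and purine salvage, 4 were at least 2-fold lower in SPAD and 1 at least 2-fold higher. Over all genes the shares were 13.3% and 14.4%. The median of the 15 was -0.41. Slc28a2, a concentrating transporter of purine nucleosides, had 76.8 in SPAD and 1213 in SVCD and was 14.5-fold lower in SPAD (log2 -3.86 ± 0.22). The equilibrative transporter gene Slc29a2 was 3.27-fold lower, at 27.1 in SPAD and 96.8 in SVCD. Ada, which deaminates adenosine, had 371.8 in SPAD and 1114 in SVCD (log2 -1.46 ± 0.20). Adk, which phosphorylates adenosine to AMP, had 897.1 in SPAD and 2644 in SVCD (log2 -1.43 ± 0.20), with -1.14 on its other probe. Ampd3, an AMP deaminase, had 664.3 in SPAD and 124.2 in SVCD and was 5.84-fold higher in SPAD (log2 2.54 ± 0.21), whereas Ampd2 differed by -0.86. Ada and Adk, which both remove adenosine, were thus at least 2-fold lower in SPAD.

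None of the 4 ATP release genes read on both arrays reached 2-fold. Over all genes, 13.3% were at least 2-fold lower and 14.4% at least 2-fold higher in SPAD. Panx1, the pannexin channel, came closest, with 7733 in SPAD and 4227 in SVCD (log2 0.997 ± 0.20). Lrrc8a, of the volume-regulated anion channel, differed by 0.53, the connexin gene Gja1 by -0.36 and Slc17a9, the vesicular nucleotide transporter, by -0.72. Panx2, Panx3 and Calhm1 were not well above background on either array.

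Among genes of the inflammasome that P2rx7 can trigger, 4 of 7 read on both arrays were at least 2-fold lower in SPAD, against 13.3% of all genes, and 0 were at least 2-fold higher, against 14.4%. Their median was -1.50. Pycard, the ASC adaptor that joins sensor and caspase, had 360.2 in SPAD and 8821 in SVCD and was 22.5-fold lower (log2 -4.49 ± 0.20). Gsdmd, the pore former gasdermin D, had 471.0 in SPAD and 2417 in SVCD (log2 -2.23 ± 0.20). Il18, a cytokine freed by caspase 1, had 135.3 in SPAD and 439.9 in SVCD (-1.57 ± 0.21), and Txnip, an Nlrp3 partner, had 1409 in SPAD and 4352 in SVCD (-1.50 ± 0.20). Casp1 differed by -0.45, Nek7 by -0.71 and the sensor gene Nlrp3, dim at 21.8 in SPAD and 43.0 in SVCD, by -0.85. Il1b did not stand well above background in SPAD or in SVCD.

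Signal carriers downstream of P2Y receptors were mixed (median -0.48). Of 10 read on both arrays, 2 were at least 2-fold lower in SPAD, against 13.3% of all genes, and 1 higher, against 14.4%. Itpr3, a receptor that releases calcium from the endoplasmic reticulum, had 1454 in SPAD and 5367 in SVCD (log2 -1.76 ± 0.20). Plcb4, a phospholipase C, had 286.0 in SPAD and 56.0 in SVCD (2.48 ± 0.21), but its other probe gave 0.12. Plcb1 was above background in SPAD alone and at least 2.84-fold higher, and Plcb2, the form of blood cells, had 15.7 in SPAD and 37.1 in SVCD (-1.12 ± 0.30). The Gq family gene Gna11 differed by 0.91 and Gnai2 by -0.82. Over all 52 pathway genes read on both arrays, 13 were at least 2-fold lower and 8 at least 2-fold higher in SPAD, with a median of -0.46. The shares of all genes to set beside these counts are again 13.3% and 14.4%.

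**Figure D4:**
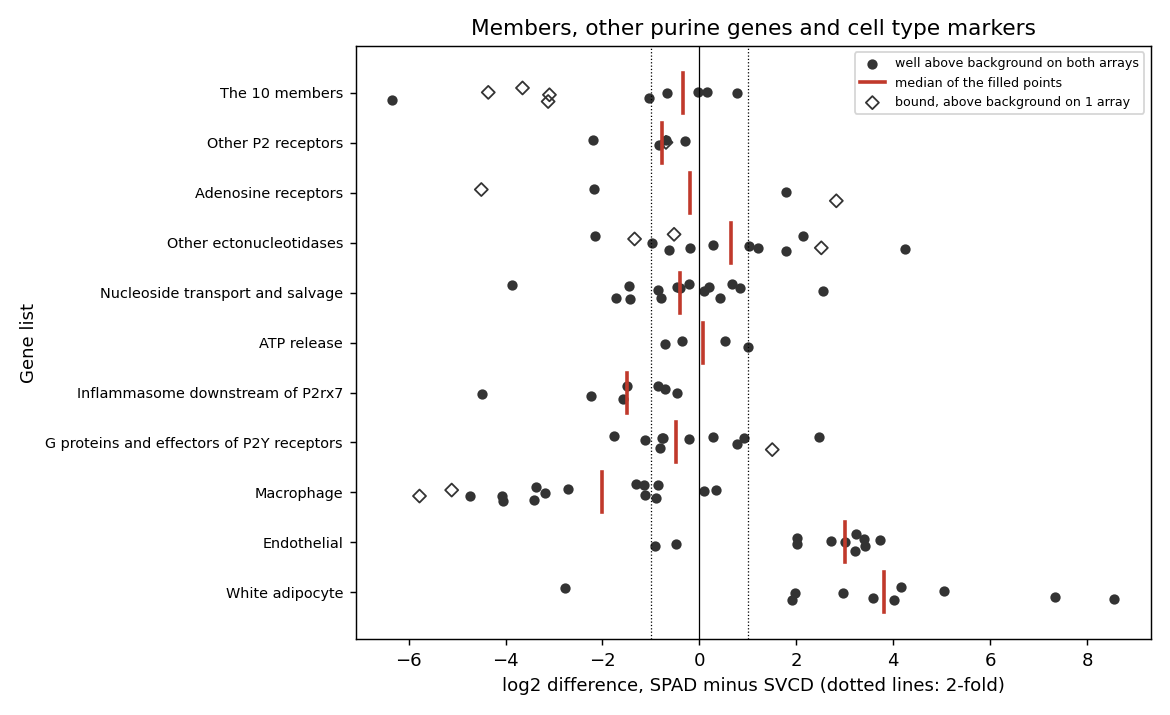
The log2 difference of SPAD minus SVCD for each gene of the 10 members, of 7 other purine gene lists and of 3 marker lists, with 1 point per gene on its brightest probe. Open diamonds are genes above background on 1 array, at their bound or, for Alpl and Plcb1, at their difference. Red bars are medians of the filled points, and dotted lines mark 2-fold. Inflammasome genes centre on -1.50 and macrophage markers on -2.02, endothelial markers on 3.00 and adipocyte markers on 3.80.

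Markers of cell types differed too, in both directions. The shares of all genes to set beside the counts below are 13.3% at least 2-fold lower and 14.4% at least 2-fold higher in SPAD. Of 16 macrophage markers measured, 10 of the 14 read on both arrays were at least 2-fold lower in SPAD and 0 higher (median -2.02), and Cx3cr1 and Fcgr1 were above background in SVCD alone. Their summed intensity was 180508 in SPAD and 416315 in SVCD. Macrophage markers were not gone from SPAD: Lyz2 had 98429 in SPAD and 84459 in SVCD, and Cd14 had 10421 in SPAD and 10567 in SVCD. Csf1r, on whose signal macrophages depend, had 3185 in SPAD and 58410 in SVCD (log2 -4.07 ± 0.20). Its other probes gave -4.03 and -1.64. Aif1 had 60.4 in SPAD and 1743 in SVCD (log2 -4.72 ± 0.22). Cx3cr1, the fractalkine receptor, had 2.50 in SPAD and 645.0 in SVCD and was at least 54.8-fold lower in SPAD, and Fcgr1 had 9.93 in SPAD and 407.1 in SVCD and was at least 34.6-fold lower. The part of macrophage number in the P2ry6, P2ry12, P2ry13, P2rx7 and inflammasome differences was not tested. Of the 5 platelet and megakaryocyte genes, Pf4 had 224368 in SPAD and 86424 in SVCD (2.83-fold higher in SPAD), and Itga2b had 94.5 in SPAD and 14.6 in SVCD (7.05-fold higher). Ppbp had 104.3 in SPAD and 87.8 in SVCD (log2 0.37 ± 0.21), and Gp1ba and Gp9 were not well above background in SPAD or in SVCD. Itga2b and Ppbp were dim, below the 75th percentile of either array. Of the 3 read on both arrays, 2 were thus at least 2-fold higher in SPAD and 0 lower. These values do not tell which cells made the RNA, and the part of these genes in the results was not tested. Endothelial markers, by their brightest probes, were at least 2-fold higher in SPAD for 9 of 11 and 0 lower. Their summed intensity was 22206 in SPAD and 7471 in SVCD. The remaining genes were Kdr (log2 -0.49, but -1.94 on its other probe) and Vwf (-0.92). White adipocyte markers were at least 2-fold higher for 9 of 10 and lower for 1, and were well above background on both arrays except Lep. Mesothelial markers were at least 2-fold lower for 3 of 5, with 0 higher. Smooth muscle and pericyte markers were at least 2-fold lower for 5 of 7 and higher for the other 2, Rgs5 (7.19-fold) and Notch3 (4.31-fold). Pericyte genes were split, since Cspg4 of the same list had 63.2 in SPAD and 183.2 in SVCD (2.66-fold lower in SPAD). Progenitor and fibroblast markers were at least 2-fold higher for 3 of 7 and lower for 0. Of 6 lymphocyte markers, 2 were read on both arrays and 0 of these reached 2-fold, and 2 more were above background in SPAD alone. Their part in the results above was not tested.

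The choice of scaling set the zero of every difference. Scaling to the array's spike-in control spots moved the median log2 difference of all genes by -0.83. Relative to the median of all genes, P2ry6 stood at -6.42, P2rx7 at -1.11, Entpd1 at -0.73, P2rx4 at -0.09, Nt5e at 0.10 and P2ry2 at 0.70, values that such a constant shift leaves as they are by construction.

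**Figure D5:**
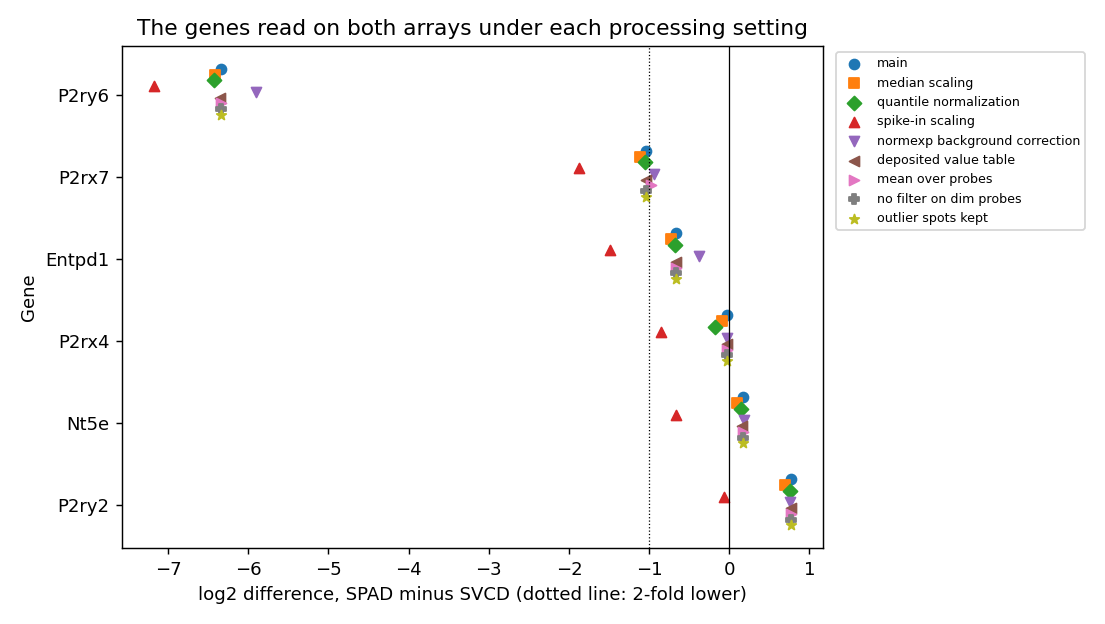
The log2 difference of SPAD minus SVCD for the 6 purinergic genes read on both arrays, with a marker for each of 9 processing settings and a dotted line at 2-fold lower. Spike-in scaling lies to the left of the other settings for every gene; P2ry6 runs from -7.18 to -5.90, and P2rx7 lies on both sides of the 2-fold line.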

How the data were processed

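RNA (30 ng) was labelled with Cy3 and hybridised to 1 array per group, per the labels. Per the submitters' processing notes, the authors' spot software was Agilent Feature Extraction 10.7.3.1; the deposited processed intensity is background-subtracted, per the file headers. Their deposited log2 table holds values centred per probe over both arrays; its difference equalled that of the scanner files plus 0.12 for 99.8% of probes (within 0.01), and no source used here names its scaling.

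Control spots (1377 per array) and outlier spots (73 on SPAD, 85 on SVCD) were left out, repeat spots averaged, and log2 intensity taken minus each array's 75th percentile. Probes were named from RefSeq (GRCm38.p6) by transcript, which matched 69.8% of 39425 probes; the array uses another build, so the only coordinates given are those of the RefSeq promoter windows, in GRCm38.p6. A gene was read by its brightest probe. Genes were counted at 2-fold among those well above background on both arrays. Others were given as bounds against the dimmest probe above background (10.8 for SPAD, 8.60 for SVCD). Where the probe on the dim array was itself brighter than that, its own value was used and the plain difference given. The members and lists were chosen with earlier results of these data known. Named were all members and, of the purine lists, every gene of lists of 8 or fewer. Of longer purine lists and of the macrophage markers, up to 6 genes with the largest difference or bound were named. Lyz2, Cd14, Lep, Rgs5, Notch3, Cspg4, Kdr, Vwf and the 5 platelet genes were named after their values were seen. The size rule was tested on simulated data. Alternatives were median, quantile and spike-in scaling, normexp in limma 3.58.1 on the median pixel signal, the deposited table, a mean over probes, no dim filter, outliers kept and 4-fold. Python 3.11.15 and R 4.3.3 were used.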

Additional observations from a re-analysis of the deposited data

How the results depend on the processing

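No paired analysis was possible because each group has 1 array. For the 6 members read on both arrays, the median of -0.34 was -0.43 with quantile normalization, -0.20 with normexp and -1.17 with spike-in scaling. It was -2.76 over all 10 members with no filter on dim probes. The count of members at least 2-fold lower, 2, was 1 with normexp, 1 with a mean over probes (P2rx7 lost in each), 1 with the 4-fold rule, 3 with spike-in scaling (Entpd1 gained) and 6 with no filter on dim probes. The other purine genes had a median of -0.46, which was -0.27 with normexp, -0.36 with a mean over probes, -0.31 with no filter and -1.29 with spike-in scaling. Their counts of 13 lower and 8 higher were 33 and 4 with spike-in scaling and 6 and 4 with the 4-fold rule. Over all genes, 1877 lower and 2029 higher became 5330 and 736 with spike-in scaling and 694 and 626 with the 4-fold rule. With no filter 3371 were higher. The median of all genes was 0.07, against -0.76 with spike-in scaling and 0.25 with no filter. Fewer or more genes follow from the stricter rule and the dropped filter by construction. Spike-in scaling moves every difference by the same constant, so its medians and counts also move by construction. For normexp the cause was not tested. P2ry6 stayed at least 2-fold lower in SPAD under all 9 settings tried, between -7.18 and -5.90, and no member past 2-fold changed sign. The dim SPAD signals of P2ry1, P2ry12, P2ry13 and P2ry14 limit their differences to bounds.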

Other observations

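P2ry10b, a receptor gene named after P2ry10, was looked up after its values were seen. Its brighter probe had 42.3 in SPAD and 529.4 in SVCD, a log2 difference of -3.52 ± 0.22 or 11.5-fold lower in SPAD. Its other probe had 9.08 in SPAD, not well above background, against 187.2 in SVCD, at least 15.9-fold lower. P2ry10 itself did not stand well above background in either population, at 4.45 in SPAD and 3.81 in SVCD. With 1 array per group these values have no replicate check.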
